A study of Mus musculus with 15 samples.

Results

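Ribosome biogenesis was followed through 46 genes that encode nucleolar and preribosomal factors, in RNA sequencing counts from sorted bone marrow cells of a mouse model of MLL-AF9 leukaemia. The genes were taken by name and not by a measured value, but with earlier results of these data known. All 46 were among the 20453 genes of the count table, and 46 of 46 passed the filter on low counts that left 14553 genes for testing. They fall into 7 genes for RNA polymerase I and its factors and 8 for proteins of small nucleolar ribonucleoproteins (snoRNPs). A further 13 are for the small subunit processome and small subunit maturation, 13 for large subunit assembly and 5 for abundant or multifunctional nucleolar proteins.

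Ribosomes are built in the nucleolus. RNA polymerase I transcribes the precursor of ribosomal RNA, snoRNPs guide its methylation and pseudouridylation, and large assemblies of helicases, GTPases and scaffold proteins cut and fold it into the small and the large subunit. In blood formation the pathway is known to be most active in dividing progenitors and to be turned down as granulocytes mature, and the transcription factor MYC is a known activator of many of its genes.

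The 14 libraries compared carry the names wtGMP (4 libraries), LTearly (4), LTlate (3) and BMTGMP (3). All are labelled C57BL/6 bone marrow, and all carry the same account of the mice: a human MLL-AF9 cDNA was targeted into A2Lox-cre cells, the chimaeras were backcrossed to C57BL/6, and double heterozygous females were used. MLL-AF9 fuses the histone methyltransferase MLL to AF9 and causes acute myeloid leukaemia. The labels give no age, no induction scheme and no genotype for single groups, wtGMP included, and they do not spell out the group names. wtGMP was taken to stand for wild-type granulocyte-macrophage progenitors (GMPs). The same text describes gates for GMPs and for long-term haematopoietic stem cells after removal of cells carrying Ter119, Gr-1, B220, Cd11b or Cd5, without saying which gate a library came from. A 15th library, with contradictory labels, was kept out of every comparison. The fusion transcript itself was not analysed here.

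Counts on named genes ran from 2469869 to 15093477 per library and were highest in LTlate, at 11569819 to 15093477. Levels are given as CPM, which are counts relative to the library total after TMM scaling. Groups were compared with the quasi-likelihood test of edgeR, a gene was called at a Benjamini-Hochberg adjusted p under 0.05 over all genes tested, and fold changes carry their standard error (SE). Titles outside wtGMP carry further codes that differ between the libraries of a group and that the labels do not explain. Parts of these codes recur between groups, as D2 does in LTearly replicate 1 and LTlate replicate 3. LT3 recurs in LTearly replicate 3, LTlate replicate 2 and the library with contradictory labels. Parts also recur within a group, as V does in BMTGMP replicates 1 and 2. The part that begins with M is shared by some libraries within each of LTearly, LTlate and BMTGMP. No label states that libraries of one group came from separate animals, so p-values measure the spread between these libraries, which may be technical. In bulk RNA, fewer cells of a type and less RNA per cell cannot be told apart.

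The libraries differed in markers of maturation. Mpo, a granule gene of GMPs, lay at 16019 to 19186 CPM in wtGMP, 561 to 4774 in LTearly, 247 to 529 in LTlate and 5728 to 9018 in BMTGMP. Cd34, which the GMP gate selects for, lay at 212 to 278 CPM in wtGMP, 12.8 to 62.9 in LTearly, 93.8 to 147 in LTlate and 3.37 to 6.70 in BMTGMP. Fcgr3, an Fc receptor gene on the same list of 10 GMP genes, was not called lower in any group: it lay at 225 to 302 CPM in wtGMP, 226 to 373 in LTearly, 362 to 484 in LTlate and 127 to 256 in BMTGMP. Of the 10, 7 fell and 0 rose in LTearly, 4 fell and 2 (Fcgr3 and Fcgr2b) rose in LTlate, and 1, Cd34, fell in BMTGMP. The summed counts of 18 late neutrophil genes made up 0.00969% to 0.0235% of gene counts in wtGMP, 2.04% to 3.30% in LTearly, 0.622% to 1.37% in LTlate and 0.194% to 0.987% in BMTGMP. None of the 18 was at 0 in every library of a group, and 18, 17 and 14 of them rose against wtGMP in LTearly, LTlate and BMTGMP. Of 8 listed genes of the stem cell gate 4 were tested, and 0 were called against wtGMP in any group. Fold changes were positive at 4 of them in LTearly, 2 in LTlate and 3 in BMTGMP. The 8 together took at most 0.00078% of gene counts in wtGMP and 0.00221% to 0.00516% in LTearly. Mecom, on this list, lay at 0 to 3.80 CPM in wtGMP and 20.3 to 34.9 in LTearly. In LTlate it lay at 0 to 5.74 and in BMTGMP at 0 to 0.837. The part of these marker genes in the levels of the ribosome biogenesis genes was not tested.

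Transcripts of ribosome biogenesis genes were highest in wtGMP and lowest in LTearly. Against wtGMP, 37 of 46 fell in LTearly, 17 in LTlate and 2 in BMTGMP. Over all genes tested, 8.96%, 3.26% and 2.16% were called lower in these comparisons, in the same order. The median log2 fold change of the 46 was −1.15 in LTearly, −0.70 in LTlate and −0.37 in BMTGMP, and over all genes tested it was 0.22, 0.00 and 0.07. No member was called higher by edgeR in any of the 6 pairs of groups, none had a positive fold change at an unadjusted p under 0.05, and DESeq2 called 0 higher in each. Of all genes, 11.2%, 7.5% and 4.4% were called higher against wtGMP.

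All LTearly libraries lay below all wtGMP libraries at 36 of 46 members (10.3% of all genes did so), all LTlate libraries at 32 (10.9%), and all BMTGMP libraries at 11 (8.32%). Taken library by library, the median member stood at 46.1%, 45.3%, 45.3% and 47.8% of its wtGMP mean in the 4 LTearly libraries. The same median was 53.7%, 66.2% and 67.5% in the 3 LTlate libraries, and 78.5%, 85.3% and 69.3% in the 3 BMTGMP libraries. Within wtGMP it ran from 93.4% to 118%, with replicate 3 the highest. By this median the LTearly libraries were thus close to each other, while LTlate replicate 2 stood below the other 2 of its group. Single genes could differ more within LTearly, as Ncl did at 1680 to 4096 CPM, and the summed level of the 46 ran from 7065 to 10471 CPM there.

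**Figure D1:**
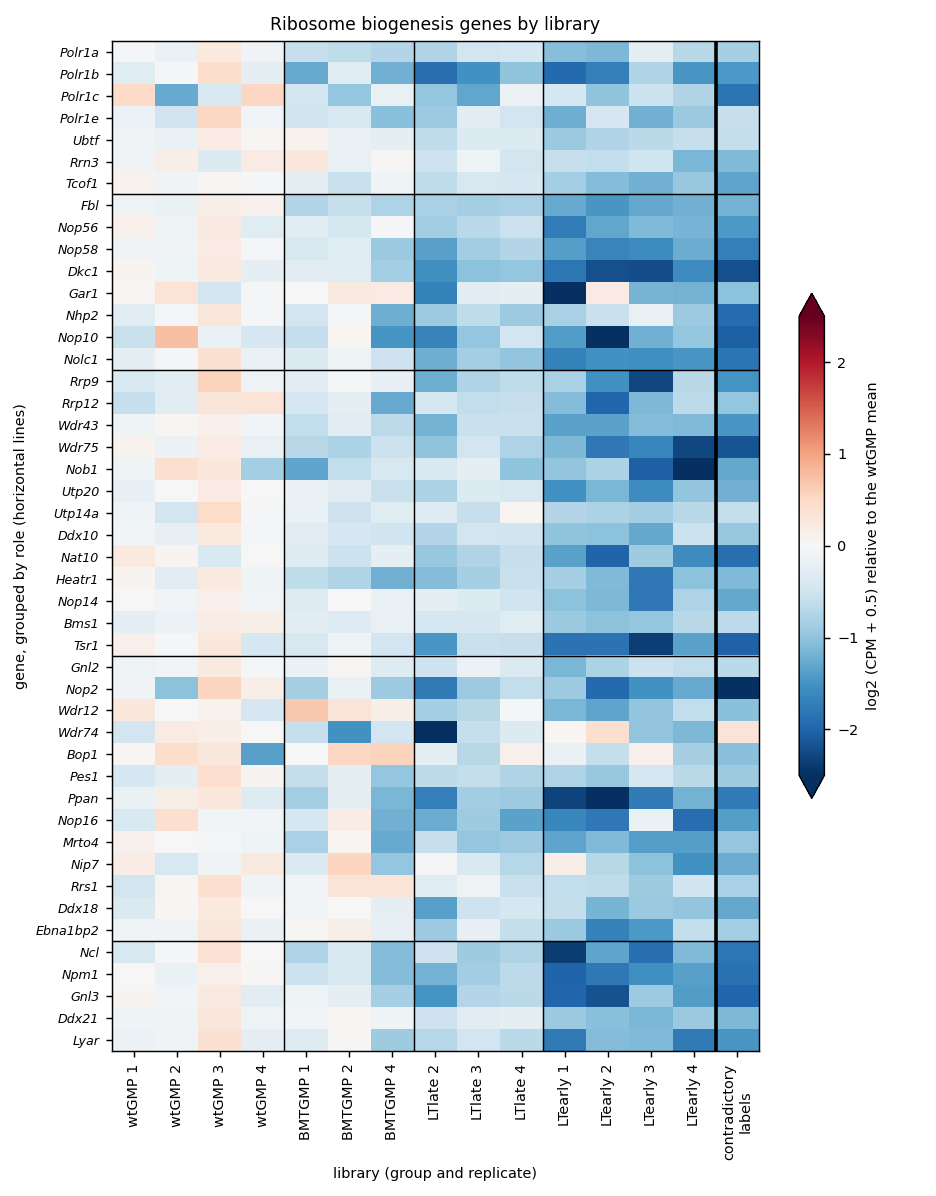
Level of the 46 ribosome biogenesis genes (rows, by role) in each library (columns, by group), as log2(CPM + 0.5) minus the log2 of the wtGMP mean CPM + 0.5, with the library of contradictory labels in the last column. LTearly columns are the lowest at 42 of 46 genes by group mean. The means run wtGMP above BMTGMP above LTlate above LTearly at 30 genes, and wtGMP above LTlate above BMTGMP above LTearly at 7.

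The group means followed 1 order, wtGMP above BMTGMP above LTlate above LTearly, at 30 of 46 members. The mean was highest in wtGMP at 41 members and in BMTGMP at 5, and lowest in LTearly at 42 and in LTlate at 4. The 3 comparisons with wtGMP share their reference libraries, so their calls are not independent of each other. Of the 37 members that fell in LTearly, 2 (Heatr1 and Npm1) also fell in LTlate and BMTGMP, 15 also in LTlate alone, and 20 were called in LTearly only. The difference between groups is tested directly below, between LTearly, LTlate and BMTGMP.

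Promoters of the members were searched because their transcripts moved together. RefSeq promoters of the mouse build GRCm38.p6, from 250 bases before to 50 after the start, were found for 39 of 46 members, not for Tcof1, Fbl, Rrp12, Gnl2, Bop1, Rrs1 and Npm1. The E-box CACGTG, a palindrome that MYC is known to bind, stood in 6 of 39 (15.4%), in 7.24% of all promoters of the table and in 9.35% of those of the genes tested. It stood in 20.2% of 84 promoters of other genes of the pathway and in 8.93% of 56 promoters of cytosolic ribosomal protein genes. The E-box genes were Rrn3, Wdr43, Utp20, Tsr1, Nop2 and Pes1. The core of ETS-type elements, CCGGAAG on either strand, stood in 15 of 39 (38.5%), in 9.12% of all promoters and in 16.0% of those of the genes tested. In the same 2 lists the core stood in 45.2% and 41.1%. Neither motif contains the other.

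Windows upstream of the start are printed for 5 members, with the motif in capitals and 25 bases on either side where these lie before the start. Nop2 (chr6:125131798-125131876, + strand) held both motifs, the E-box from 60 and the ETS core from 38 bases before the start. Rrn3 (chr16:13780626-13780681, + strand) is shown for the E-box that begins 48 bases before the start. Rrn3 held a further E-box, 215 bases before the start, and the ETS core on the other strand at 5 bases before and 19 after it. Nolc1 (chr19:46075808-46075846), Heatr1 (chr13:12395334-12395374) and Nhp2 (chr11:51619725-51619772), all on the + strand, are shown for an ETS core that begins 14, 16 and 23 bases before the start.
Nop2: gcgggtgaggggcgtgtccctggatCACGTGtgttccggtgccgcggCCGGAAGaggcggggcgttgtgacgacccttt
Rrn3: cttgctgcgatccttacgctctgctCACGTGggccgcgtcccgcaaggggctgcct
Nolc1: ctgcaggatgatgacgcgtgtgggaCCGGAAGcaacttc
Heatr1: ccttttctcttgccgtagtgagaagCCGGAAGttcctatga
Nhp2: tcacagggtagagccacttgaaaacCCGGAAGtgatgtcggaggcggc

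Members with and without a motif were among those that fell. Of the 6 members with an E-box 5 fell in LTearly, and of the 33 without one 26 did. Of the 15 members with the ETS core 8 fell in LTearly, and of the 24 without it 23 did. Members with the core that were not called were Polr1c, Polr1e, Rrn3, Gar1, Nhp2, Wdr74 and Nip7, all with negative fold changes. They belong to the 9 members not called in LTearly, at a median level of 16.4 CPM against 177 in the 37 called. Whether the core or counting depth plays a part was not tested. Nolc1 and Heatr1, both with the core close to the start, fell, while Nhp2, with the same core, was not called. The NRF1 motif and a further CG-rich palindrome, searched on both strands, were in 0 of 39 promoters (1.84% and 0.952% of those of the genes tested). The SP1 core GGGCGG was in 25 of 39 (64.1%) and in 58.0% of the promoters of genes tested, and TATAAA in 3 of 39 (7.69%) and in 9.23% (35.9% and 14.2% of all promoters). A match of letters is a description of these windows and not a site shown to be bound.

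RNA polymerase I genes had the smallest median change of the 5 roles in LTearly, −0.74 on the log2 scale, and 4 of 7 fell against wtGMP. Polr1a encodes the largest subunit of the enzyme. Its level was 217, 195, 261 and 208 CPM in wtGMP and 105, 101, 187 and 137 in LTearly. It was 130, 159 and 161 in LTlate and 147, 141 and 133 in BMTGMP, so every library of these 3 groups lay below every wtGMP library. Polr1a fell in LTearly (log2 fold change −0.74 ± 0.19 SE, edgeR adjusted p = 0.00613). It was not called in LTlate (−0.55 ± 0.21, edgeR adjusted p = 0.0912) or BMTGMP (−0.65 ± 0.21, edgeR adjusted p = 0.0599).

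Polr1b, the second largest subunit, was among the members with the largest fold changes. Its mean in wtGMP was 52.3 ± 13.3 CPM and that in LTearly 19.6 ± 7.80 (SD, n = 4 each). LTlate averaged 19.1 ± 6.09 and BMTGMP 28.8 ± 11.8 (n = 3 each). It fell in LTearly (−1.42 ± 0.35) and by about as much in LTlate (−1.45 ± 0.38), where it was the 1 called member of 7 in its role. Polr1c, shared by polymerases I and III, and Polr1e, a subunit known from the enzyme's initiation complex, were not called against wtGMP, and their libraries overlapped between groups.

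Ubtf encodes UBF, the factor that keeps ribosomal DNA open and recruits the polymerase. It stood at 450, 429, 550 and 485 CPM in wtGMP, 251, 282, 298 and 320 in LTearly, 309, 378 and 378 in LTlate, and 509, 429 and 412 in BMTGMP. LTearly and LTlate libraries lay below all wtGMP libraries, and BMTGMP libraries within or beside their range. Ubtf fell in LTearly against wtGMP (−0.73 ± 0.15, edgeR adjusted p = 7.92e-04) and against BMTGMP (−0.64 ± 0.16, edgeR adjusted p = 0.0153). The second of these calls was lost without BMTGMP replicate 1 and when only the 2 groups compared were fitted.

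Rrn3 encodes TIF-IA, the factor that makes the polymerase competent to start and that growth signals are known to regulate. It stood at 52.8, 63.0, 44.2 and 64.9 CPM in wtGMP, 37.4, 36.8, 39.6 and 25.1 in LTearly, 39.0, 51.5 and 40.7 in LTlate, and 67.8, 49.3 and 57.4 in BMTGMP. All LTearly libraries were below all wtGMP and all BMTGMP libraries. In LTearly against wtGMP the fold change was −0.70 ± 0.25, at an edgeR adjusted p of 0.0502, just outside the threshold. In BMTGMP it was 0.05 ± 0.27. Tcof1, the treacle protein that links UBF with the polymerase, averaged 331 ± 16.8 CPM in wtGMP and 164 ± 16.6 in LTearly (n = 4 each), and fell (−1.02 ± 0.16).

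**Figure D2:**
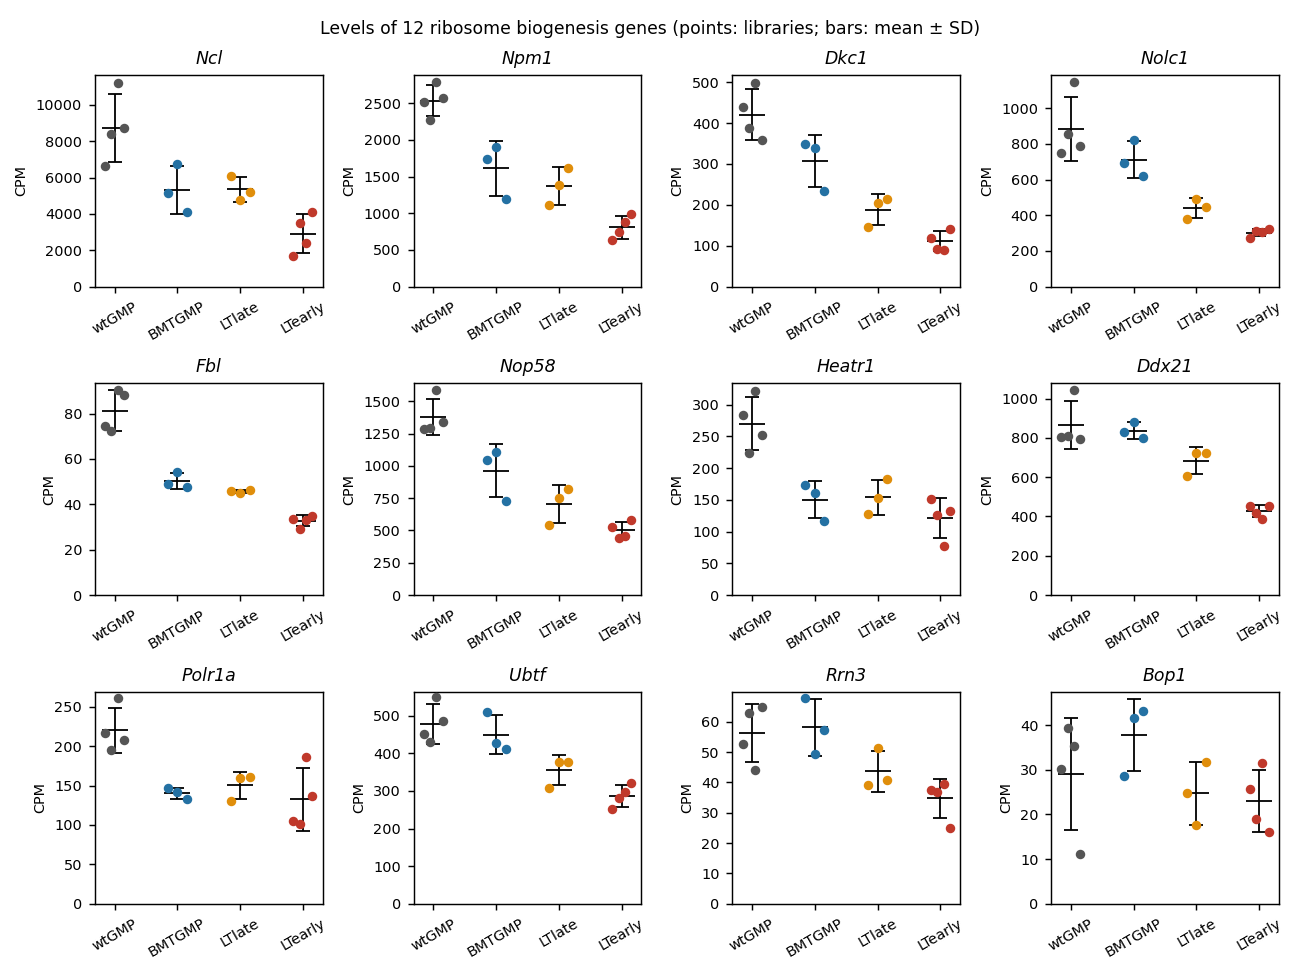
CPM of 12 ribosome biogenesis genes by group, with points for libraries and bars for the mean ± SD (n = 4 for wtGMP and LTearly, n = 3 for LTlate and BMTGMP), each axis starting at 0. LTearly points lie below all wtGMP points in every panel but Bop1.

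Proteins of snoRNPs included the 2 members with the smallest p in LTlate, Nolc1 and Dkc1. Against wtGMP 5 of 8 fell in LTearly and 5 of 8 in LTlate, at a median log2 fold change of −1.38 and −0.90. These 5 were Dkc1, Nop58, Nop56, Fbl and Nolc1 in both. Dkc1 encodes dyskerin, the pseudouridine synthase of box H/ACA snoRNPs, which telomerase also contains. It stood at 440, 388, 498 and 358 CPM in wtGMP, 120, 91.6, 90.6 and 141 in LTearly, 146, 206 and 214 in LTlate, and 348, 339 and 234 in BMTGMP. The 4 groups formed 4 separate ranges. Dkc1 fell in LTearly to 26.4% of wtGMP (−1.92 ± 0.19, edgeR adjusted p = 3.84e-08) and in LTlate to 44.8% (−1.16 ± 0.21, edgeR adjusted p = 2.87e-04). In BMTGMP it was at 73.1% of wtGMP and not called (−0.45 ± 0.20, edgeR adjusted p = 0.216).

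Nolc1 encodes Nopp140, a nucleolar chaperone of both classes of snoRNP. It stood at 750, 857, 1146 and 787 CPM in wtGMP, 275, 310, 304 and 324 in LTearly, 378, 492 and 449 in LTlate, and 694, 823 and 618 in BMTGMP. LTearly, LTlate and BMTGMP did not overlap with each other, and BMTGMP overlapped only with wtGMP. Nolc1 fell in LTearly (−1.54 ± 0.16, edgeR adjusted p = 7.48e-08) and in LTlate (−1.01 ± 0.18, edgeR adjusted p = 2.07e-04), and was not called in BMTGMP (−0.31 ± 0.17, edgeR adjusted p = 0.315).

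The core proteins of box C/D snoRNPs, which methylate ribosomal RNA, fell in both LTearly and LTlate. Fbl, the methyltransferase fibrillarin, stood at 74.4, 72.4, 90.2 and 88.0 CPM in wtGMP, 33.8, 29.3, 33.0 and 35.0 in LTearly, 45.9, 45.1 and 46.3 in LTlate, and 49.0, 54.2 and 47.5 in BMTGMP. Each group was narrow and none overlapped with another. Fbl fell in LTearly (−1.31 ± 0.22, edgeR adjusted p = 9.48e-05) and in LTlate (−0.83 ± 0.24, edgeR adjusted p = 0.0227). In BMTGMP the fold change was −0.69 ± 0.24 (edgeR adjusted p = 0.0872). The LTlate call was lost on leaving out wtGMP replicate 3 or 4, or any single LTlate library, and without the filter on low counts.

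Nop58, a scaffold of the same particle, stood at 1287, 1292, 1583 and 1342 CPM in wtGMP, 529, 439, 454 and 583 in LTearly, 539, 752 and 823 in LTlate, and 1049, 1110 and 727 in BMTGMP. It fell in LTearly (−1.46 ± 0.17, edgeR adjusted p = 3.40e-07) and LTlate (−0.97 ± 0.18, edgeR adjusted p = 4.86e-04). Its partner Nop56 averaged 364 ± 57.8 CPM in wtGMP, 147 ± 27.6 in LTearly (n = 4 each), 226 ± 26.6 in LTlate and 307 ± 43.5 in BMTGMP (n = 3 each), and fell in LTearly (−1.31 ± 0.18) and LTlate (−0.69 ± 0.19). The 3 small partners of dyskerin, Gar1, Nhp2 and Nop10, were not called in any comparison, with fold changes of −0.91 ± 0.61, −0.60 ± 0.30 and −1.56 ± 0.70 in LTearly. Counts for Nop10 were as low as 4 in a library and for Gar1 as low as 7.

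All 13 genes of the small subunit processome and small subunit maturation fell in LTearly, at a median log2 fold change of −1.20 and a range of −1.81 to −0.77. In LTlate 5 of 13 fell (Heatr1, Wdr43, Tsr1, Ddx10 and Nat10), and in BMTGMP 1 (Heatr1). Heatr1, a component known from the early t-UTP complex that also supports transcription of ribosomal RNA, stood at 283, 224, 322 and 252 CPM in wtGMP. It stood at 151, 126, 78.2 and 132 in LTearly, 127, 152 and 183 in LTlate, and 174, 161 and 117 in BMTGMP. The last 3 groups overlapped with each other, and all their libraries were below all wtGMP libraries. The fold changes were −1.15 ± 0.20 in LTearly (edgeR adjusted p = 1.29e-04), −0.81 ± 0.22 in LTlate (edgeR adjusted p = 0.0138) and −0.84 ± 0.22 in BMTGMP (edgeR adjusted p = 0.0155). The BMTGMP call was lost without wtGMP replicate 3 or BMTGMP replicate 4, and the LTlate call without wtGMP replicate 3 or LTlate replicate 2 or 3.

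Among these 13 genes the largest fall in LTearly was that of Tsr1, a factor of late 40S maturation. It went from 124 ± 24.4 CPM in wtGMP to 35.3 ± 10.1 (SD, n = 4 each), a log2 fold change of −1.81 ± 0.25. Wdr75, a t-UTP protein, changed by −1.68 ± 0.27 and Nob1, the nuclease that makes the 3′ end of 18S ribosomal RNA, by −1.51 ± 0.46. At Nob1 the LTearly and wtGMP libraries overlapped. The smallest falls were those of Utp14a (−0.77 ± 0.21) and Bms1, a GTPase of the processome (−0.90 ± 0.15). In LTlate the 13 fold changes ran from −0.86 to −0.26 and in BMTGMP from −0.84 to −0.16, all negative.

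Large subunit assembly was less even. In LTearly 10 of 13 fell, in LTlate 4 (Ppan, Pes1, Nop2 and Ddx18) and in BMTGMP 0 by edgeR. In BMTGMP 1 was at an unadjusted p under 0.05, as were 2846 of all 14553 genes tested. Ppan fell most, from 110 ± 20.4 CPM in wtGMP to 28.6 ± 15.6 in LTearly (SD, n = 4 each), or −1.94 ± 0.33. In BMTGMP it averaged 67.8 ± 22.4 (n = 3). The PeBoW complex, which is needed to process the precursor of 28S ribosomal RNA, has its 3 proteins among the members. Pes1 fell in LTearly (−0.70 ± 0.19) and LTlate (−0.67 ± 0.21). Wdr12 fell in LTearly and had a higher mean in BMTGMP, 131 ± 24.6 CPM, than in wtGMP, 99.2 ± 18.8 (0.40 ± 0.25, not called). Bop1 was not called in any comparison (−0.34 ± 0.36 in LTearly against wtGMP), with 30.3, 39.4, 35.4 and 11.1 CPM in wtGMP and 25.7, 18.9, 31.6 and 16.1 in LTearly.

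Wdr74 and Nip7, of the same role, were also not called against wtGMP. Nop2, a methyltransferase of 28S ribosomal RNA, fell in LTearly (−1.37 ± 0.31) and LTlate (−1.03 ± 0.34), although its wtGMP libraries, at 98.5, 51.2, 151 and 116 CPM, reached into the range of both groups. Beside Pes1, the smallest called falls of this role were those of Rrs1 (−0.65 ± 0.23) and Gnl2, a GTPase of pre-60S particles (−0.75 ± 0.17). Mrto4, a factor that holds the place of the ribosomal stalk, was narrow within LTearly (9.02 ± 0.93 CPM) and wtGMP (22.8 ± 1.37, n = 4 each), and fell by 1.33 on the log2 scale.

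All 5 multifunctional nucleolar genes fell in LTearly, at a median of −1.54, and 2 of 5 in LTlate. Ncl encodes nucleolin, which acts in transcription and early processing of ribosomal RNA. It stood at 6638.5, 8406, 11195 and 8740 CPM in wtGMP, 1680, 3490, 2374 and 4096 in LTearly, 6077, 4753 and 5226 in LTlate, and 5138, 6720 and 4125 in BMTGMP. All LTearly libraries were below all others, although replicate 4 lay just under the lowest BMTGMP library. Ncl fell in LTearly (−1.59 ± 0.25, edgeR adjusted p = 2.11e-04). Its log2 fold change was −0.71 ± 0.26 in LTlate (edgeR adjusted p = 0.109) and −0.71 ± 0.26 in BMTGMP (edgeR adjusted p = 0.139), neither called.

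Npm1 encodes nucleophosmin, an abundant nucleolar chaperone that is mutated in many acute myeloid leukaemias. It stood at 2512, 2272, 2784 and 2575 CPM in wtGMP, 632, 738, 877 and 990 in LTearly, 1114, 1379 and 1621 in LTlate, and 1738, 1909 and 1192 in BMTGMP. The LTearly libraries were below all others, and LTlate and BMTGMP overlapped. Npm1 fell in LTearly (−1.65 ± 0.17, edgeR adjusted p = 5.66e-08), in LTlate (−0.89 ± 0.18, edgeR adjusted p = 0.00134) and in BMTGMP (−0.65 ± 0.18, edgeR adjusted p = 0.0249). The BMTGMP call was lost without BMTGMP replicate 4 and without wtGMP replicate 1, 3 or 4, and also with the replicate block, with summed transcripts and with the library of contradictory labels counted as LTlate. Some reads of Npm1 were divided among several hits, as its values were not whole in 100% of libraries, which also held for Fbl and Nip7, and in 92.9% for Dkc1, Nop56 and Mrto4 and 85.7% for Ncl. These shares count libraries with a value that was not whole, and do not give the part of the reads that was divided. Further members had such values in fewer libraries, as Ddx18 did in 71.4%, Nop16 in 64.3% and Pes1 in 57.1%. How uncertain divided reads make these levels was not measured.

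Gnl3, or nucleostemin, a GTPase known for its high level in stem and progenitor cells, fell in LTearly (−1.54 ± 0.25) and LTlate (−0.92 ± 0.27). Its mean was 273 ± 39.0 CPM in wtGMP and 94.2 ± 38.7 in LTearly (SD, n = 4 each). Lyar, a nucleolar zinc finger protein, fell in LTearly (−1.40 ± 0.21). The RNA helicase gene Ddx21 stood at 805, 809, 1046 and 792 CPM in wtGMP, 452, 419, 389 and 451 in LTearly, 603, 722 and 724 in LTlate, and 828, 882 and 797 in BMTGMP. BMTGMP lay within the wtGMP range (−0.05 ± 0.15), LTlate below it (−0.34 ± 0.16, edgeR adjusted p = 0.182), and LTearly below all (−1.01 ± 0.14, edgeR adjusted p = 9.66e-06).

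**Figure D3:**
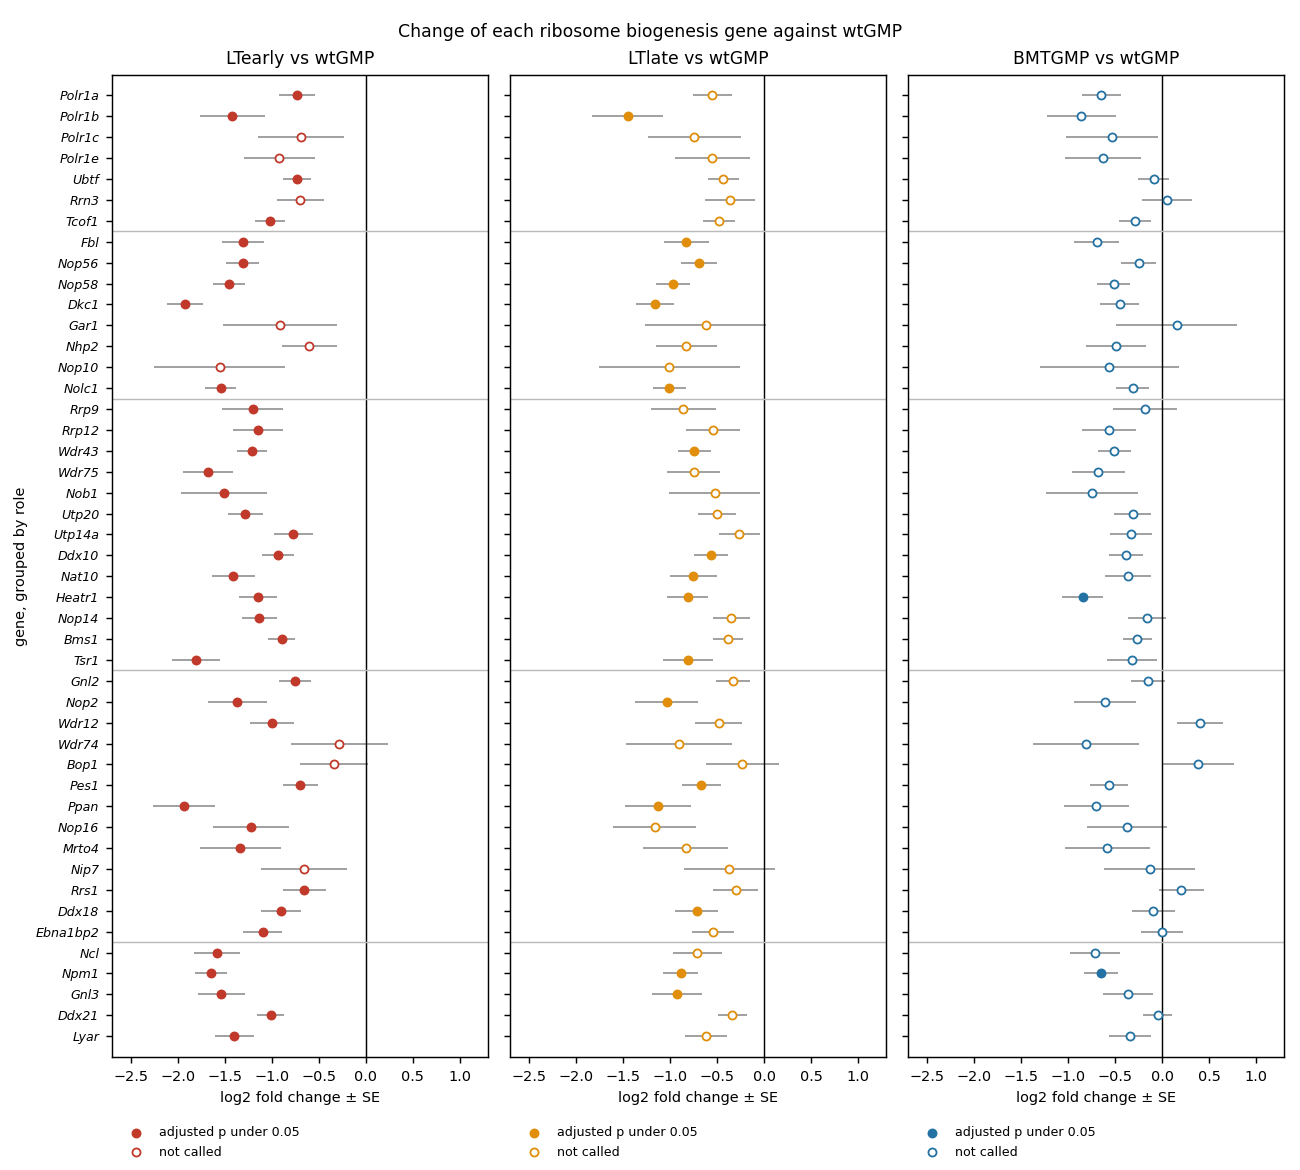
Log2 fold change against wtGMP (± SE) of each of the 46 genes, grouped by role, in LTearly, LTlate and BMTGMP, with filled points for genes called by edgeR at an adjusted p under 0.05. Points for LTearly are filled at 37 genes, for LTlate at 17 and for BMTGMP at 2, and the LTearly points lie farthest to the left at most genes.

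The 9 members not called in LTearly had few counts. Their mean level was 7.86 to 47.8 CPM, with a median of 16.4, and that of the 37 called was 15.1 to 5619, with a median of 177. CPM is not corrected for transcript length and stands here for counting depth, not for abundance. Whether depth kept these 9 from being called was not tested, and their 9 fold changes in LTearly were all negative, from −1.56 at Nop10 to −0.28 at Wdr74.

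In LTlate against wtGMP the count of 17 depended on single libraries. It was 11, 13, 7 and 11 without wtGMP replicate 1, 2, 3 or 4, and 4, 5 and 11 without LTlate replicate 2, 3 or 4. Calls lower over all genes dropped in the same runs, from 475 to 376, 387, 311 and 348, and to 186, 261 and 308. The median log2 fold change of the members stayed at −0.56 to −0.76. The count of members was 29 when only LTlate and wtGMP were fitted and 10 when transcripts of a gene were summed. The 46 fold changes were all negative, from −1.45 at Polr1b to −0.23 at Bop1. In BMTGMP against wtGMP 41 of 46 were negative, and the 5 positive ones, at Wdr12, Bop1, Rrs1, Gar1 and Rrn3, ran from 0.40 down to 0.05, none called. Its count of 2 became 0 without wtGMP replicate 3 or BMTGMP replicate 4, 1 without wtGMP replicate 1 or 4, and 7 with DESeq2 or with only BMTGMP and wtGMP in the fit.

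LTearly was also compared directly with BMTGMP and LTlate. Against BMTGMP 23 of 46 members fell and 0 rose (edgeR; 2.8% of all genes were lower and 3.39% higher), and all LTearly libraries lay below all BMTGMP libraries at 29 (7.79% of all genes). The median log2 fold change was −0.79, and 0.10 over all genes. By role, 4 of 5 multifunctional genes fell, 4 of 8 snoRNP, 7 of 13 small subunit, 6 of 13 large subunit and 2 of 7 polymerase I genes. The 3 with the smallest p were Dkc1 (−1.47 ± 0.20, edgeR adjusted p = 4.92e-05), Nolc1 (−1.23 ± 0.17, edgeR adjusted p = 5.12e-05) and Ddx21 (−0.96 ± 0.15, edgeR adjusted p = 2.89e-04). Ncl missed the threshold (−0.87 ± 0.26, edgeR adjusted p = 0.0574), and Heatr1 differed little (−0.30 ± 0.21, not called). The count was 12 when only these 2 groups were fitted.

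All 23 of these genes were also lower in LTearly than in wtGMP. Wdr12 showed one of the widest gaps, with 44.5, 39.7, 49.5 and 64.3 CPM in LTearly and 158, 125 and 110 in BMTGMP (−1.40 ± 0.25). Tsr1 was at 35.7% of BMTGMP (−1.49 ± 0.26) and Ppan at 42.5% (−1.24 ± 0.34). Polr1a, by contrast, was at 94.1% of its BMTGMP level (−0.09 ± 0.21) and Pes1 at 91.4% (−0.13 ± 0.20), neither called.

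Against LTlate, 0 members were called in LTearly by edgeR, although 24 of 46 had an unadjusted p under 0.05 and DESeq2 called 7 lower. Of all 14553 genes tested, 1726 had such an unadjusted p and DESeq2 called 76 lower. In this comparison 0.0893% of all genes were called lower and 0.117% higher. The median log2 fold change of the members was −0.50 (all genes 0.11), 42 of 46 were negative, and all LTearly libraries lay below all LTlate libraries at 17 (5.67% of all genes). The smallest edgeR adjusted p-values were those of Ddx21 (−0.67 ± 0.15, 0.0566), Npm1 (−0.76 ± 0.18, 0.0667), Nop14 (0.0769), Utp20 (0.0781) and Dkc1 (−0.76 ± 0.20, 0.0977). Without LTearly replicate 4 the count was 8, without LTlate replicate 2 it was 3, and without LTearly replicate 1 it was 1. In the self-test on simulated data, 6.2% of true 2-fold changes and 44.7% of 4-fold changes were recovered in this comparison. The changed genes were drawn at random from all genes tested, so these shares do not give the recovery of the members.

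LTlate and BMTGMP differed at 1 member. Nolc1 was lower in LTlate, at 61.8% of BMTGMP (−0.69 ± 0.18, edgeR adjusted p = 0.0413), where 0.46% of all genes were called lower and 1.52% higher. All LTlate libraries lay below all BMTGMP libraries at 13 members (9.65% of all genes). The median was −0.28, and −0.06 over all genes. The call of Nolc1 was lost on leaving out any LTlate library or BMTGMP replicate 1 or 2, and also with the filter of 1 CPM, with summed transcripts and with the library of contradictory labels counted as LTearly. The count was 0 without LTlate replicate 2 or 3 or BMTGMP replicate 1 or 2, 2 without BMTGMP replicate 4, and 1 without LTlate replicate 4, that 1 being Wdr12, named after its values were seen.

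Another 98 genes of the pathway, listed by role with earlier results known, were compared in the same fit. In LTearly 46 of 98 fell and 1 rose against wtGMP, with a median log2 fold change of −0.74. Of these, 24 of 40 large subunit, 15 of 40 small subunit, 5 of 9 snoRNP assembly and 2 of 9 polymerase I genes fell. In LTlate 20 fell and in BMTGMP 3, at medians of −0.47 and −0.26. Over all genes tested, 8.96%, 3.26% and 2.16% were called lower in LTearly, LTlate and BMTGMP, at medians of 0.22, 0.00 and 0.07. Ftsj3, a methyltransferase-related factor of precursor processing, stood at 538, 514, 675 and 536 CPM in wtGMP, 164, 175, 223 and 196 in LTearly, 203, 262 and 287 in LTlate, and 363, 346 and 344 in BMTGMP. It fell in all 3, by −1.58 ± 0.16, −1.17 ± 0.18 and −0.69 ± 0.17. Nifk fell in LTearly (−1.62 ± 0.22) and LTlate (−1.13 ± 0.23), and Rrp1b in LTearly (−1.59 ± 0.21). Ruvbl2, an ATPase of snoRNP assembly, fell in LTlate (−1.15 ± 0.21) and BMTGMP (−0.90 ± 0.21).

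Bysl, a factor of 40S maturation, went the other way. It stood at 61.5, 60.2, 101 and 51.9 CPM in wtGMP, 116, 128, 150 and 91.5 in LTearly, 106, 94.4 and 117 in LTlate, and 108, 141 and 98.0 in BMTGMP. It rose in LTearly (0.82 ± 0.22, edgeR adjusted p = 0.00882), with 1 wtGMP library inside the LTearly range. Zfp622, a factor that acts on late cytoplasmic 60S particles, was 160, 182, 195 and 206 CPM in wtGMP, 116, 254, 152 and 157 in LTearly, 105, 130 and 168 in LTlate, and 91.2, 103 and 94.0 in BMTGMP. It fell in BMTGMP (−0.95 ± 0.23, edgeR adjusted p = 0.00823) and was higher in LTearly than in BMTGMP (0.82 ± 0.23, edgeR adjusted p = 0.0289). Against BMTGMP, 23 of the 98 were lower and 1, Zfp622, higher in LTearly (2.8% and 3.39% of all genes). The lower ones were led by Rrp15 (−1.29 ± 0.24), Pdcd11 (−1.21 ± 0.23) and Ftsj3 (−0.89 ± 0.17). In LTearly against LTlate and in LTlate against BMTGMP edgeR called 0 of 98, with 27 and 12 at an unadjusted p under 0.05. Of all 14553 genes tested, 1726 and 1747 had such a p.

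Cytosolic ribosomal protein genes, whose products are assembled by these factors, were lower in LTearly at 59 of 76, with a median of −0.70 against −1.15 at the 46 members. In LTlate 4 of 76 fell (median −0.31) and in BMTGMP 2 (median −0.30). The shares called lower over all genes tested were 8.96% in LTearly, 3.26% in LTlate and 2.16% in BMTGMP. The 76 genes took 3.88% to 4.07% of gene counts in wtGMP, 2.16% to 3.14% in LTearly and 2.92% to 3.42% in LTlate. In BMTGMP they took from 2.54% upward, a range that overlapped with that of wtGMP. The 46 members together took 1.92% to 2.58% in wtGMP, 0.721% to 1.03% in LTearly, 1.27% to 1.39% in LTlate and 1.37% to 1.81% in BMTGMP. These totals lean on Ncl and Npm1. Without both, the share was 1.01% to 1.23% in wtGMP, 0.442% to 0.528% in LTearly, 0.570% to 0.724% in LTlate and 0.809% to 0.936% in BMTGMP, 4 ranges that did not overlap.

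Genes of the MYC and MAX network, of which 9 of 11 were tested, were mixed. Myc stood at 97.1, 104, 56.1 and 73.8 CPM in wtGMP, 19.8, 40.0, 45.9 and 31.8 in LTearly, 65.3, 60.3 and 67.8 in LTlate, and 49.0, 61.3 and 66.8 in BMTGMP. LTearly was below all other libraries. Myc fell there against wtGMP (−1.27 ± 0.27, edgeR adjusted p = 8.09e-04) and was not called in LTlate (−0.36 ± 0.28) or BMTGMP (−0.49 ± 0.28).

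Mxd1 and Mxi1 encode partners of MAX that are known to oppose MYC. Mxd1 was 12.2 to 35.5 CPM in wtGMP, 501, 409, 708 and 110 in LTearly, 255, 116 and 88.8 in LTlate, and 33.9, 86.9 and 42.1 in BMTGMP. It rose in LTearly (edgeR adjusted p = 0.00118) and LTlate (2.51 ± 0.63, edgeR adjusted p = 0.0278), and was higher in LTearly than in BMTGMP (2.99 ± 0.68, edgeR adjusted p = 0.0282). Mxi1 rose in all 3 groups, by 1.42 ± 0.21, 1.36 ± 0.22 and 1.11 ± 0.22. Mnt, Mga, Mlx, Mxd3, Mxd4 and Max were not called against wtGMP. A part of these genes in the levels of the ribosome biogenesis genes was not tested.

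**Figure D4:**
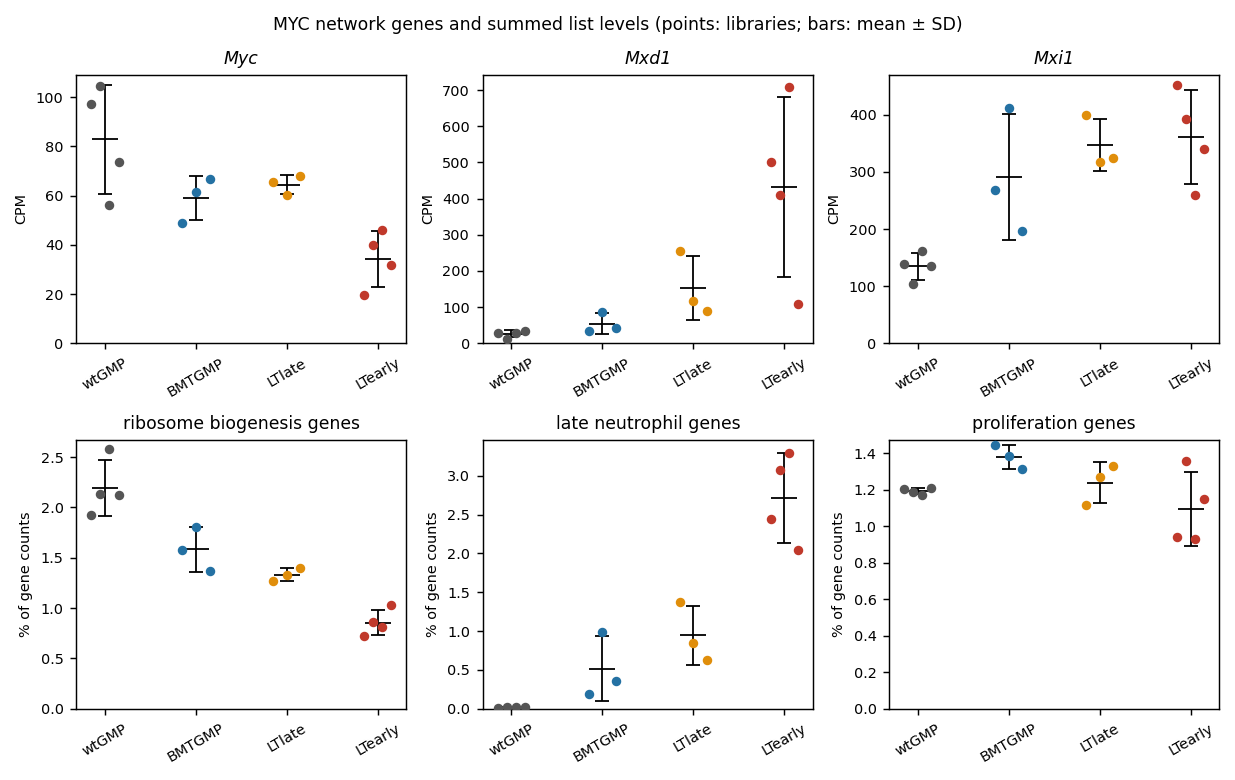
CPM of Myc, Mxd1 and Mxi1 (upper row) and percent of gene counts on the 46 ribosome biogenesis genes, 18 late neutrophil genes and 20 proliferation genes (lower row) by group, with points for libraries and bars for the mean ± SD. The ribosome biogenesis share runs from 1.92% to 2.58% in wtGMP down to 0.721% to 1.03% in LTearly, the late neutrophil share is highest in LTearly, and the proliferation share runs from 0.928% to 1.36% in LTearly and from 1.31% to 1.44% in BMTGMP, against 1.17% to 1.21% in wtGMP.

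The 20 proliferation genes took 1.17% to 1.21% of counts in wtGMP, 0.928% to 1.36% in LTearly, 1.12% to 1.33% in LTlate and 1.31% to 1.44% in BMTGMP, where all libraries lay above all wtGMP libraries. This total leans on Mki67, at 5848 to 6337 CPM in wtGMP and 5877 to 9271 in LTearly. The other 19 genes summed to 5205 to 6267 CPM in wtGMP, 2902 to 4536 in LTearly, 3844 to 4844 in LTlate and 4851 to 5789 in BMTGMP. Without Mki67, all LTearly and all LTlate libraries thus lay below all wtGMP libraries. Gene by gene, 9 of 20 fell in LTearly (median −0.62, 18 negative), 3 in LTlate (−0.39) and 0 in BMTGMP by edgeR. In BMTGMP 2 were at an unadjusted p under 0.05, as were 2846 of all 14553 genes tested. Monocyte and macrophage genes took 0.246% to 0.289% of counts in wtGMP and 0.569% to 0.861% in LTearly. This rested on Lyz2, which averaged 479 CPM in wtGMP and 5137 in LTearly. The other 14 listed genes summed to 1972 to 2426 CPM in wtGMP and 1469 to 2669 in LTearly. Of the 15 listed genes 14 were tested, Lyz2 included, and 5 rose and 0 fell in LTearly, with 4 negative fold changes. Erythroid genes took at most 0.0173% in any library compared. Markers of B cells reached at most 0.00252% and those of T and NK cells at most 0.00204%, both in LTearly replicate 3. The part of these cell types and of proliferation in the levels of the ribosome biogenesis genes was not tested.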

How the data were processed

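RNA was sequenced from sorted mouse bone marrow cells. The deposited table holds 28847 RefSeq transcripts. Its unit is an expected count: 13.75% of values are not whole (tolerance 1e-06), up to 100 hits per read were kept on mm9 per the file headers, and the submitters' processing notes list Bowtie (0.9.9.1). The authors applied no scaling. Symbols came from a RefSeq gene table (25973 transcripts) and GENCODE metadata (119), and unmatched transcripts held 3.5% to 4.2% of counts. For each gene the transcript of highest mean count was kept, and its counts were rounded. Of the table's columns, 1 matched no sample and was not used. No 2 libraries were identical.

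One fit of 14 libraries (edgeR 4.0.16, R 4.3.3; filterByExpr, TMM, robust quasi-likelihood test, 2-sided) gave 6 contrasts, and the common biological coefficient of variation was 0.748. Each SE is the size of the log2 fold change divided by the root of the F statistic. DESeq2 1.42.0, other scalings and filters, the replicate number as a block, the 15th library counted in either group, smaller fits, summed transcripts, thinning to 2469869 counts and leaving out libraries, LTearly replicates 3 and 4 also together, were the alternatives, of which scaling by library totals alone was added after seeing the data. The fit was tested on simulated data with 200 changed genes, drawn at random from all genes tested. Of true 2-fold changes it recovered 8.7% for LTearly vs wtGMP (13188 genes), 12.1% for LTlate vs wtGMP (13199) and 12.4% for BMTGMP vs wtGMP (13250). Of 4-fold changes it recovered 39.6%, 41.6% and 41.1%. These shares do not give the recovery of the members.

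The members, roles and lists were chosen with earlier results of these data known. Values in every library are given for Ncl, Npm1, Fbl, Dkc1, Polr1a, Ubtf and Rrn3 and, per comparison, for the 3 called members with the smallest p in each direction. Up to 3 called genes of the other pathway list with the smallest p per comparison and direction are named, some by fold change alone. Other genes were named after their values were seen, as examples of their role. Promoter sequences are those of RefSeq, build GRCm38.p6, and no coordinate was carried over to mm9. Of the listed genes, Nol8, Ly6g and Hbb-b1 were not analysed here.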

Additional observations from a re-analysis of the deposited data

Results flagged for a closer look

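In the 92 sets of 4 libraries formed by the 46 genes in wtGMP and in LTearly, 4 had 1 library whose gap to the nearest other exceeded Dixon's critical value, as a share of the range. Chance flags about 1 in 20 such sets. Ebna1bp2, Ddx21 and Lyar were high in wtGMP replicate 3. Ebna1bp2, a factor of large subunit assembly, stood at 332 CPM there and at 243 to 257 in the other 3 libraries (gap 0.841 of the range). Ddx21 stood at 1046 CPM and at 792 to 809 in the others (0.931), and Lyar at 413 CPM and at 273 to 296 in the others (0.834). The same library had the highest median member in wtGMP, at 118% of the group mean. Without it, 32 members in place of 37 were called lower in LTearly, 7 in place of 17 in LTlate and 0 in place of 2 in BMTGMP. Nop16, a factor of large subunit assembly, was high in LTearly replicate 3, at 33.0 CPM against 9.62 to 11.7 in the other 3 (0.909).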

How the results depend on the processing

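No member reversed its direction in a called comparison under any alternative, and 0 members were called higher in any. The count for LTearly against wtGMP, 37, was 32 to 38 throughout. Leaving out 1 library at a time gave 32 to 37 for LTearly against wtGMP, 4 to 13 (17 with all libraries) for LTlate against wtGMP, 0 to 3 (2) for BMTGMP against wtGMP, 0 to 8 (0) for LTearly against LTlate, 18 to 25 (23) for LTearly against BMTGMP and 0 to 2 (1) for LTlate against BMTGMP. With only the groups compared in the fit, the count was 29 for LTlate against wtGMP, 7 for BMTGMP against wtGMP and 12 for LTearly against BMTGMP. With DESeq2 it was 7 for BMTGMP against wtGMP, 7 for LTearly against LTlate and 3 for LTlate against BMTGMP. Summing transcripts gave 10 for LTlate against wtGMP, 1 for BMTGMP against wtGMP and 0 for LTlate against BMTGMP. For LTearly against LTlate, no filter gave 7, a filter of 1 CPM in 3 libraries 2, thinning 1, and leaving out LTearly replicates 3 and 4 together 8. That pair had been chosen from earlier results, as nearer to LTlate. The mean rank correlation of LTearly replicates 1 to 4 with LTlate was 0.881, 0.902, 0.874 and 0.935. With the other LTearly libraries it was 0.871, 0.881, 0.862 and 0.881, so by these values replicate 3 did not stand out as nearer to LTlate. Counting depth also differed, at 4006670, 3816822, 2696288 and 8695512 counts in LTearly replicates 1 to 4, and its part in these correlations was not tested. The same filter of 1 CPM gave 0 for LTlate against BMTGMP. The library with contradictory labels, counted as LTearly, gave 7 for LTearly against LTlate and 0 for LTlate against BMTGMP, and counted as LTlate it gave 1 for BMTGMP against wtGMP and 3 for LTlate against BMTGMP. The causes were not tested. Thinning moved the median of all genes in LTearly against wtGMP by −0.12, and the other scalings moved it by at most 0.0763 in any comparison. Fitting only LTearly and wtGMP moved their median by −0.17. Leaving out BMTGMP replicate 4 moved that of LTearly against BMTGMP by 0.126. With DESeq2 the lower share of all calls went from 43.3% to 30.3% for LTearly against LTlate and from 23.3% to 33.9% for LTlate against BMTGMP.

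Same-numbered libraries did not pair: 1 of 18 pairs of the same number correlated above 0.1, and 3 of 14 libraries correlated best with their own number. The replicate block gave 36, 14, 1, 0, 24 and 1 members lower, in the order in which the comparisons stand above. Counting depth limits Nop10 and Gar1 most, with as few as 4 and 7 counts in a library.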

Other observations

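The library that its title calls LTearly and its column LTlate held 7926485 counts on named genes. Its median ribosome biogenesis gene stood at 40.8% of the wtGMP mean, and the 46 genes took 0.742% of its counts. It lay below every wtGMP library at 44 of 46 genes. Against the range of LTearly it was below at 9, within at 33 and above at 4 genes, and against the ranges of LTlate and of BMTGMP it was below at 39, within at 6 and above at 1 in each. Dkc1 was at 91.2 CPM in it, Nop58 at 420, Npm1 at 695, Ncl at 2510 and Fbl at 35.4. Its late neutrophil genes took 3.26% of counts.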
